A study of Mus musculus with 4 samples.

Results

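Polycomb group genes encode 2 chromatin-modifying machines, and 9 of their core genes were followed here in cortical neural stem and progenitor cells that received short hairpin RNAs against 3 transcriptional regulators. The 9 are Ezh2, Eed and Suz12 of Polycomb repressive complex 2 (PRC2) and Ring1, Rnf2, Bmi1, Cbx2, Cbx7 and Cbx8 of Polycomb repressive complex 1 (PRC1). They were chosen by name, matched through their Ensembl identifiers, and all 9 were found among the 34866 identifiers of the deposited table. The cells came from the mouse dorsal telencephalon at E11.5 and were grown for 5 days as neurospheres, free-floating balls of cells, with basic fibroblast growth factor. The sh3F group received 3 lentiviral vectors at plating, each at a multiplicity of infection of 10: pCS-EG-shPhf21b against Phf21b, pLV-EG-shZfp7 against Zfp7, and pLV-EG-shZfp57 against Zfp57. The shControl group received CS-EG-shControl alone at a multiplicity of 30, and its genotype is labelled WT. Each group had 2 libraries. The number of vectors and the backbone of the Zfp7 and Zfp57 hairpins went with the group, so their effects cannot be told apart from those of the hairpins.

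PRC2 places methyl groups on lysine 27 of histone H3, and PRC1 places ubiquitin on histone H2A; both marks accompany repression of developmental genes. In the developing cortex, Polycomb complexes are known for holding down genes of other lineages and of earlier stages as progenitors age, and loss of Ezh2 or Rnf2 in mice alters the timing of neuron and glia production. Canonical PRC1 carries a CBX protein that reads the PRC2 mark, while variant PRC1 carries Rybp or Yaf2 in its place.

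Total estimated counts ranged from 15170491 to 17901386 in sh3F and from 14694387 to 20779211 in shControl. Of the targeted transcripts, Zfp57 measured 10.7 and 9.32 CPM (the count relative to the scaled library total) in sh3F against 14.6 and 11.8 CPM in shControl, Phf21b 5.49 and 6.45 against 7.25 and 7.36 CPM, and Zfp7 1.97 and 0.977 against 1.67 and 2.25 CPM. None of the 3 passed the test (edgeR adjusted p = 0.341, 0.644 and 0.80 for Zfp57, Phf21b and Zfp7). All 12 markers of neural stem and progenitor cells were detected in every library; Sox2 stood at 49.997 and 55.6 CPM in sh3F against 66.9 and 62.1 CPM in shControl, and the lowest on average, Emx1, at 3.89 and 3.06 against 6.18 and 5.63 CPM. Of the 12, 0 passed in edgeR, 2 had an unadjusted p under 0.05 and 9 had fitted values below 0. Over all tested genes, 1.37% passed in edgeR, 12% had an unadjusted p under 0.05 and 51.1% had fitted values below 0. The summed level of 16 genes of cycling cells was 1169 and 1251 CPM in sh3F against 1172 and 1092 CPM in shControl, with 0 of 16 past the edgeR threshold and 0 at an unadjusted p under 0.05. Of 10 neuronal markers 1 fell, Tubb3, the neuronal tubulin (log2 fold change -0.72, edgeR adjusted p = 0.000445); 3 of the 10 had an unadjusted p under 0.05, 9 had fitted values below 0, and their sum was 735 and 767 CPM in sh3F against 957 and 878 CPM in shControl. Of 4 tested red blood cell genes 1 rose, the embryonic globin gene Hbb-y (log2 fold change 0.63, edgeR adjusted p = 0.0399); 3 of the 4 had an unadjusted p under 0.05, all 4 fitted values were above 0, and the sum of that 8-gene list was 39.6 and 37.8 CPM in sh3F against 25.1 and 27.8 CPM in shControl. Leaving out sh3F replicate 1 or 2 ended both calls, with edgeR adjusted p = 0.0657 and 0.0852 for Tubb3 and 0.974 and 0.0858 for Hbb-y. Sums over microglial and macrophage genes (34.3 to 39.6 CPM in sh3F, 36.5 to 39.0 CPM in shControl) and over endothelial and pericyte genes (7.36 to 7.69 CPM and 6.78 to 8.56 CPM) overlapped, with 0 genes past the threshold and 2 and 0 at an unadjusted p under 0.05. The part of these cell markers in the Polycomb values was not tested, and in bulk RNA fewer cells of a type and less RNA per cell cannot be told apart.

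None of the 9 Polycomb genes passed the test between sh3F and shControl. The test was edgeR's quasi-likelihood F test over 14050 genes with a Benjamini-Hochberg adjusted p under 0.05; all 9 were tested, and 1.37% of all tested genes passed, 0.541% higher and 0.826% lower in sh3F. DESeq2 and limma-voom likewise called 0 of 9. At an unadjusted p under 0.05 there was 1 member, Cbx8, against 12% of all tested genes. The fitted log2 fold changes, sh3F over shControl, were above 0 for 5 members and below 0 for 4, with a median of 0.0045, beside a median of -0.01 over all tested genes. In 3 members the sh3F and shControl libraries did not overlap, and the background share of such genes was 41.3%.

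**Figure D1:**
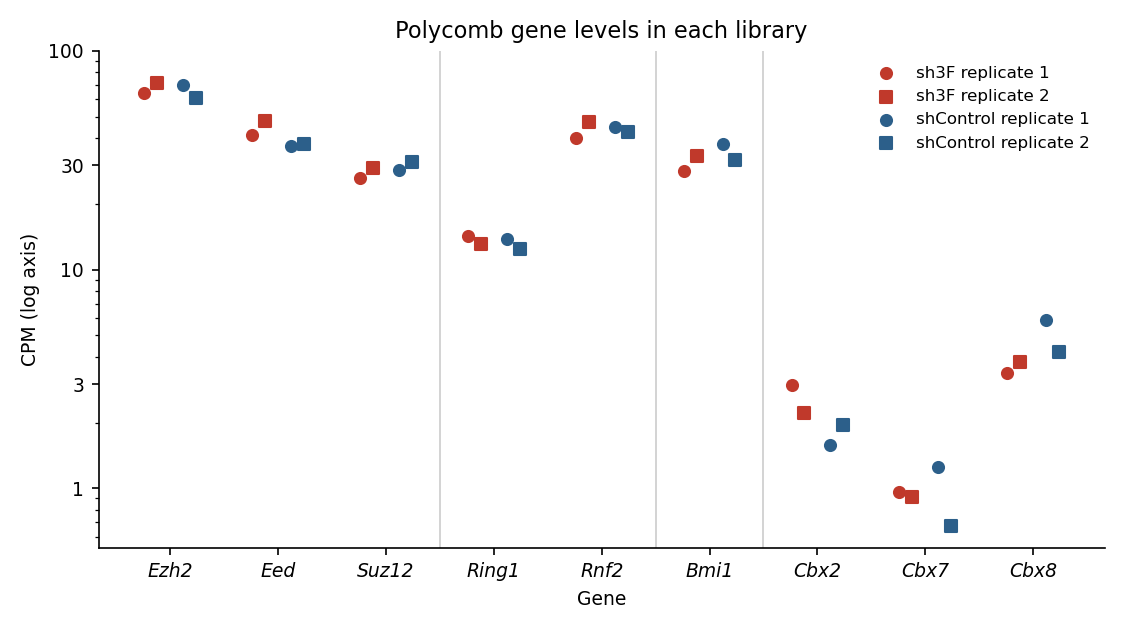
Level of each Polycomb gene in the 4 libraries, in CPM on a log axis; red points are sh3F, blue points shControl, circles replicate 1 and squares replicate 2, and grey lines separate PRC2, the RING ligases, Bmi1 and the CBX genes. Red and blue points are interleaved for 6 genes; both red points lie above the blue ones for Eed and Cbx2 and below them for Cbx8, where the adjusted p-values were 0.475, 0.545 and 0.393.

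Because PRC1 and PRC2 are recruited to unmethylated CG-rich DNA, and because ZFP57 binds the hexamer TGCCGC when its CG is methylated, the promoters of the members were searched for these letters. RefSeq promoters (GRCm38.p6) were given for 8 members, all but Cbx2. In the 250 bases before the RefSeq start site, the 8 held 12 to 37 CG dinucleotides with a median of 22.5. The median over 32851 promoters, of tested and untested genes together, was 6. Of all promoters, 68.5% held no more CG than Eed, the lowest of the 8, and 98.1% no more than Suz12, the highest. No median was computed for the promoters of tested genes alone. For Ezh2 and Cbx7 the searched bases lie inside the annotated gene, and for Eed and Cbx8 they overlap it by 7 and 56 bases. TGCCGC was found on neither strand in any of the 8, and in 8.68% of all promoters. The E2F 8-mers TTTCCCGC, TTTGGCGC, TTTCGCGC and TTTGCCGC, the last of which contains TGCCGC, were searched on both strands. A match was found in Suz12 alone of the 8, its first base -219 from the start, and in 1.86% of all promoters. Such a match is a description of the letters, not of binding. The stretches before the annotated transcripts are printed for Eed and Cbx8, the members with the lowest unadjusted p, and for Suz12, the richest in CG, with each CG in capitals, 5′ to 3′ on the strand of the gene.
Eed, chr7:89980984-89981226, minus strand: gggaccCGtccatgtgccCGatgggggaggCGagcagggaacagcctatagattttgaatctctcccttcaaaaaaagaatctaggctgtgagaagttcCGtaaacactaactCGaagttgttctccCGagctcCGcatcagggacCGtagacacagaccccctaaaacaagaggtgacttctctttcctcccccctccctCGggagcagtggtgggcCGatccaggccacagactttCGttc
Cbx8, chr11:119040970-119041163, minus strand: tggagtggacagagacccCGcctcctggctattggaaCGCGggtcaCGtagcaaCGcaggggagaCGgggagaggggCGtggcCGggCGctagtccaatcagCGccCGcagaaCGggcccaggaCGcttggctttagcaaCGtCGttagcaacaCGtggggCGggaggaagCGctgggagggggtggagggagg
Suz12, chr11:79992856-79993105, plus strand: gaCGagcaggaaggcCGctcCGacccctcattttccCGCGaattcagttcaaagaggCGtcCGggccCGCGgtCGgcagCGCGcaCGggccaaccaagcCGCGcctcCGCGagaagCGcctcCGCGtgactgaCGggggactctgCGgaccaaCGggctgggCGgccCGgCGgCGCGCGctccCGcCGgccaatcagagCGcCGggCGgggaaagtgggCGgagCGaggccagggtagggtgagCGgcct
The printed Eed stretch holds 11 CG in 243 bases, the Cbx8 stretch 18 in 194 bases and the Suz12 stretch 37 in 250 bases.

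The PRC2 genes were well expressed and did not pass. Ezh2, the methyltransferase (ENSMUSG00000029687, chromosome 6, 47530139 to 47595341, GRCm38), measured 64.1 and 71.5 CPM in sh3F against 69.9 and 61.1 CPM in shControl. The libraries of the groups were interleaved, and on the log2 scale Ezh2 differed by 0.05 (SE 0.14; edgeR adjusted p = 0.937). Eed, which binds the methylated histone tail and stimulates the enzyme (ENSMUSG00000030619, chromosome 7, 89954654 to 89980983), measured 41.0 and 47.8 CPM in sh3F against 36.6 and 37.6 CPM in shControl. Both sh3F libraries lay above both shControl libraries, as for 19.6% of all tested genes, and on the log2 scale Eed differed by 0.26 (SE 0.14; edgeR adjusted p = 0.475). The fitted level was 120% of shControl with a 95% interval of 98.4% to 146%. Of the exonic bases of Eed, 6.82% overlap the opposite-strand gene E230029C05Rik, and the labels do not say whether reads were counted by strand. Suz12, the scaffold that holds the complex together (ENSMUSG00000017548, chromosome 11, 79993106 to 80034123), measured 26.3 and 29.1 CPM in sh3F against 28.5 and 30.95 CPM in shControl, overlapping (log2 fold change -0.10, SE 0.15; edgeR adjusted p = 0.861).

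The PRC1 ligases and Bmi1 did not pass either. Rnf2 (Ring1B), the main catalytic subunit (ENSMUSG00000026484, chromosome 1, 151458004 to 151500955), measured 40.0 and 47.4 CPM in sh3F against 44.6 and 42.4 CPM in shControl. Both sh3F values flanked the shControl values, and on the log2 scale Rnf2 differed by 0.0045 (SE 0.14; edgeR adjusted p = 0.994). Its paralog Ring1 (Ring1A; ENSMUSG00000024325, chromosome 17, 34020792 to 34024680) measured 14.2 and 13.03 CPM in sh3F against 13.8 and 12.5 CPM in shControl, also overlapping (log2 fold change 0.04, SE 0.18; edgeR adjusted p = 0.957). Bmi1 (Pcgf4), the ligase partner known for repressing Cdkn2a and sustaining neural stem cell self-renewal (ENSMUSG00000026739, chromosome 2, 18677018 to 18686629), measured 28.4 and 33.2 CPM in sh3F against 37.4 and 31.6 CPM in shControl. The groups overlapped, and on the log2 scale Bmi1 differed by -0.17 (SE 0.15; edgeR adjusted p = 0.711). Of the 31-mers of Bmi1, 28.2% occur in another gene, and which genes share them was not recorded. Gm5946, looked up by name as a processed copy of Bmi1, was assigned 1 and 0 counts in sh3F and 1 and 0 counts in shControl.

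The CBX readers were the least abundant members and had the widest intervals. Cbx8 (ENSMUSG00000025578, chromosome 11, 119036305 to 119040969) measured 3.36 and 3.78 CPM in sh3F against 5.90 and 4.21 CPM in shControl, or 63 and 58 against 127 and 56 estimated counts. Both sh3F libraries lay below both shControl libraries in CPM, as for 21.7% of all tested genes. On the log2 scale Cbx8 differed by -0.53 (SE 0.26; edgeR adjusted p = 0.393), which is 69.4% of shControl with a 95% interval of 48.8% to 98.7%. Leaving out shControl replicate 1 gave -0.24, and leaving out shControl replicate 2 gave -0.72. Cbx2 (ENSMUSG00000025577, chromosome 11, 119022962 to 119031270), a CBX protein that compacts nucleosomes and whose loss in mice causes sex reversal, measured 2.98 and 2.21 CPM in sh3F against 1.58 and 1.95 CPM in shControl. These were 56 and 34 against 34 and 26 estimated counts, with the sh3F libraries above the shControl libraries. On the log2 scale Cbx2 differed by 0.58 (SE 0.36; edgeR adjusted p = 0.545), which is 150% of shControl with an interval of 91.4% to 245%. Cbx7 (ENSMUSG00000053411, chromosome 15, 79915807 to 79971119), the prominent CBX protein of mouse embryonic stem cells, was near the limit of counting, at 18 and 14 estimated counts in sh3F against 27 and 9 in shControl. In CPM these were 0.959 and 0.912 against 1.254 and 0.676, overlapping (log2 fold change -0.09, SE 0.51; edgeR adjusted p = 0.971), with an interval of 46.1% to 191% of shControl.

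The precision differed between the abundant and the scarce members. For the 6 members with a mean of at least 10 CPM, the 95% intervals lay between 72.3% and 146% of shControl, and for the 3 CBX members between 46.1% and 245%.

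**Figure D2:**
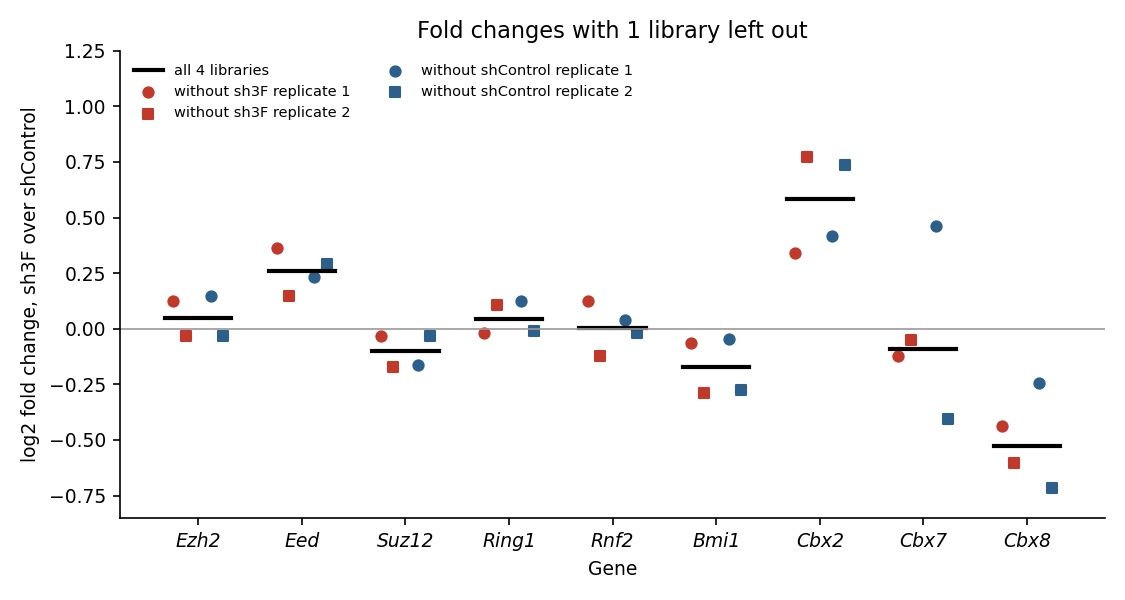
Log2 fold change of each Polycomb gene, sh3F over shControl, from all 4 libraries (black bars) and with 1 library left out (points; red without a sh3F library, blue without a shControl library, circles replicate 1, squares replicate 2). The points of Ezh2, Ring1, Rnf2 and Cbx7 fall on both sides of 0, while those of Eed and Cbx2 stay above it and those of Suz12, Bmi1 and Cbx8 below it; 0 of the 36 points passed the threshold.

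Leaving out 1 library moved the values of the 3 CBX members most. For Cbx7, leaving out shControl replicate 1 gave 0.46 and leaving out shControl replicate 2 gave -0.41, on the log2 scale. That of Eed ran from 0.15 to 0.36 and that of Cbx2 from 0.34 to 0.77. Bmi1 ran from -0.29 to -0.04, Suz12 from -0.17 to -0.03 and Cbx8 from -0.72 to -0.24.

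Levels were compared between genes as CPM per kilobase of annotated exon. Within PRC2, Eed stood at 10.7 and 12.5 in sh3F against 9.55 and 9.83 in shControl on that scale, Ezh2 at 9.60 and 10.7 against 10.5 and 9.15, and Suz12 at 5.32 and 5.88 against 5.77 and 6.26. Eed and Ezh2 overlapped and both exceeded Suz12 in every library. With the length of the longest transcript as divisor, the level of Ezh2 was above that of Eed in every library, at 23.0 and 25.6 in sh3F and 25.1 and 21.9 in shControl, against 19.9 and 23.1 in sh3F and 17.7 and 18.2 in shControl for Eed. Ezh1, the paralog of Ezh2 that prevails in non-dividing cells, was far lower, at 0.322 and 0.324 in sh3F against 0.20 and 0.263 in shControl per kilobase of exon. The ratio of Ezh2 to Ezh1 was 29.8 and 33.0 in sh3F against 52.4 and 34.8 in shControl, where Ezh1 had only 45 and 37 against 32 and 26 counts.

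Rnf2 exceeded Ring1 in every library, with a ratio of 2.22 and 2.86 in sh3F against 2.53 and 2.67 in shControl, overlapping. Among the 6 PCGF genes, which set the type of PRC1, Bmi1 and Pcgf1, the PCGF subunit of a variant PRC1 with Kdm2b and Bcor, were highest: Pcgf1 stood at 8.92 and 8.57 in sh3F against 9.63 and 10.7 in shControl per kilobase, and Bmi1 at 7.14 and 8.34 against 9.42 and 7.96. Pcgf2 (Mel18), the closest paralog of Bmi1, was lower, and the ratio of Bmi1 to Pcgf2 was 3.63 and 3.58 in sh3F against 3.19 and 3.46 in shControl.

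**Figure D3:**
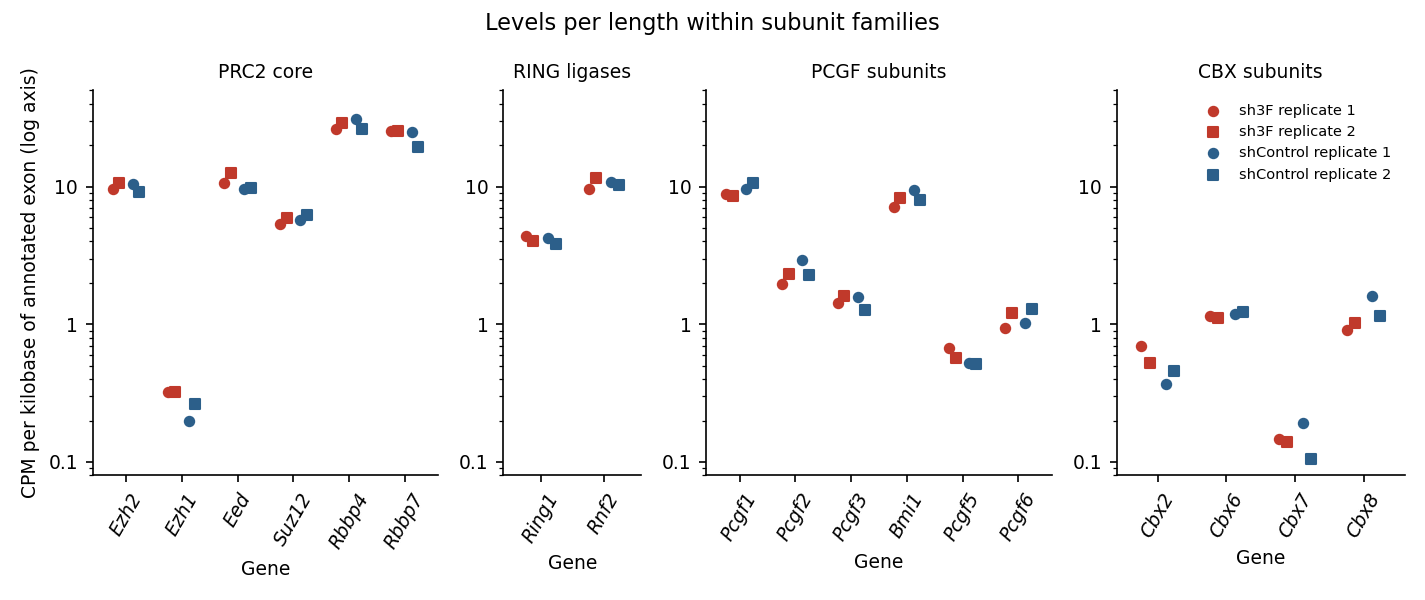
Level per length of the genes of 4 subunit families in each library, as CPM per kilobase of annotated exon on a log axis; red points are sh3F and blue points shControl, circles replicate 1 and squares replicate 2. Ezh1 lies far below Ezh2, Ring1 below Rnf2, and the 4 CBX genes shown lie between 0.104 and 1.61.

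Among the 4 CBX genes followed, Cbx8 and Cbx6 were highest and Cbx7 lowest in every library. Cbx8 measured 0.914 and 1.03 in sh3F against 1.61 and 1.14 in shControl per kilobase of exon, and Cbx6, a little-studied reader that is no member, 1.15 and 1.12 against 1.20 and 1.23. Cbx2 measured 0.701 and 0.52 in sh3F against 0.371 and 0.459 in shControl. Cbx2 and Cbx8 lie 5034 bases apart on chromosome 11, transcribed towards each other. The ratio of Cbx2 to Cbx8 was 0.767 and 0.506 in sh3F against 0.231 and 0.401 in shControl, so both sh3F ratios lay above both shControl ratios. The ratio of Suz12 to Eed was 0.497 and 0.471 in sh3F against 0.604 and 0.637 in shControl. Of 9 ratios computed between subunits, 6 had groups that did not overlap. The share was 41.3% for single tested genes, and no share was computed for ratios of other genes. The ratios share members and are descriptions; none was tested.

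The wider Polycomb machinery showed no called gene. Of 35 other subunit genes, all of them tested, edgeR, DESeq2 and limma-voom each called 0. At an unadjusted p under 0.05 there were 2 of the 35, both accessory PRC2 genes, against 12% of all tested genes. Jarid2, which helps bring PRC2 to DNA, measured 9.27 and 9.58 CPM in sh3F against 6.08 and 7.81 CPM in shControl (log2 fold change 0.45, edgeR adjusted p = 0.332). Phf1, a Polycomb-like protein, measured 4.69 and 5.15 CPM in sh3F against 6.55 and 7.89 CPM in shControl (log2 fold change -0.55, edgeR adjusted p = 0.272), but 39.3% of its exonic bases overlap other genes. The median log2 fold change of the 35 was -0.06, with 16 above 0 and 19 below 0, beside the median of -0.01 over all tested genes.

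**Figure D4:**
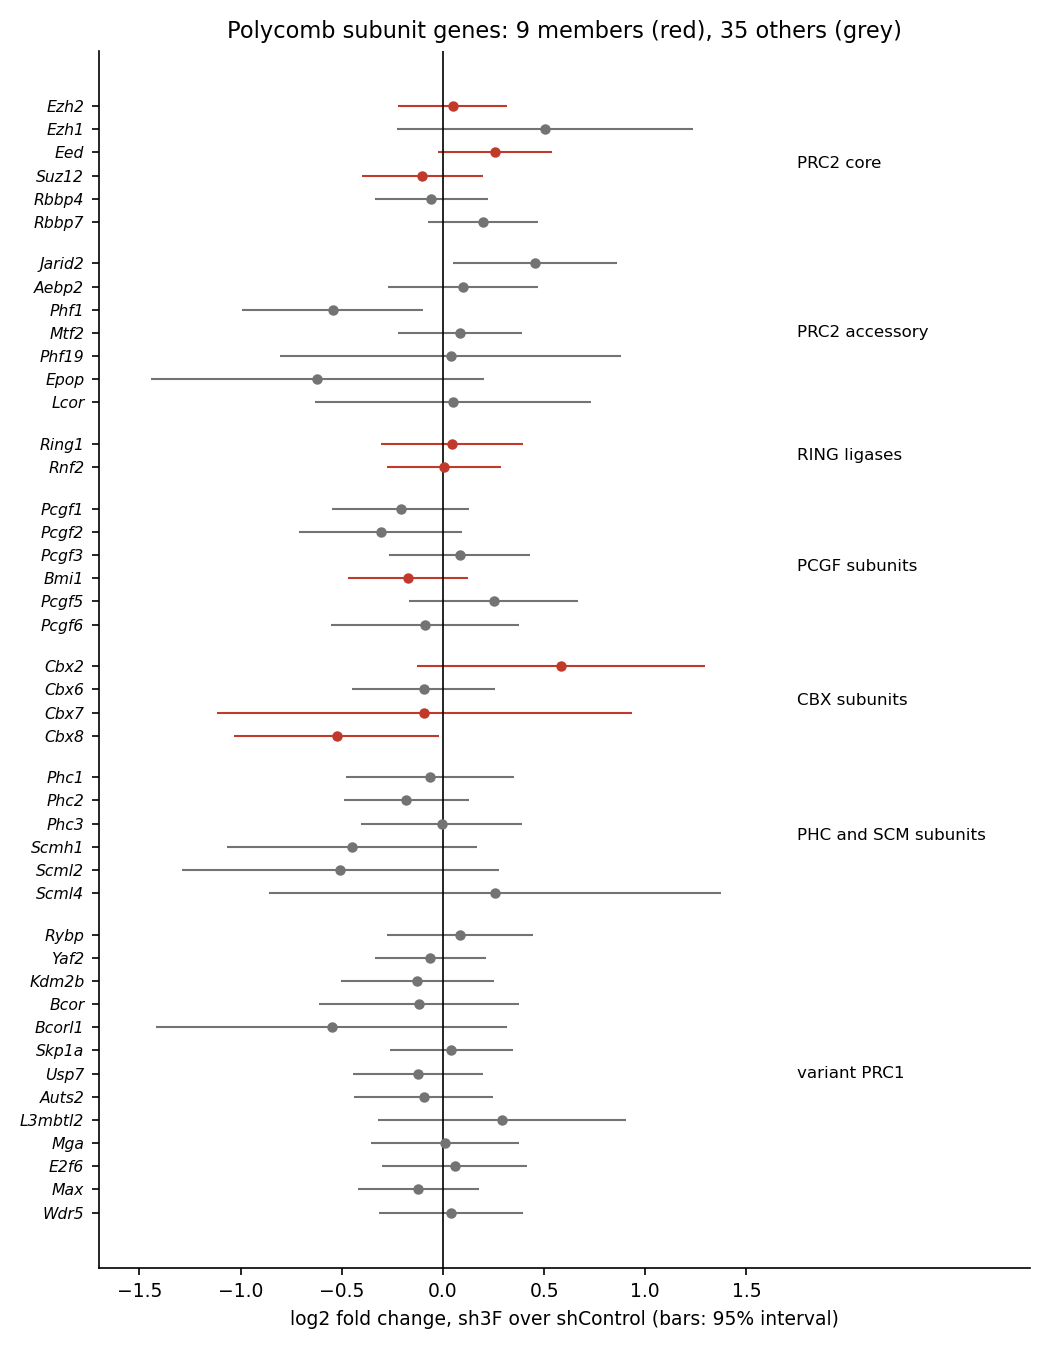
Log2 fold change of 44 Polycomb subunit genes, sh3F over shControl, with 95% intervals, grouped by subunit family; the 9 members are red and the 35 other subunits grey. The intervals of Cbx8, Jarid2 and Phf1 exclude 0 before adjustment, and 0 of the 44 genes passed after adjustment over all tested genes.

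By family, the medians ran from -0.13 to 0.12, beside -0.01 over all tested genes. The 2 RING ligase genes had a median of 0.02. The 6 core PRC2 genes had a median of 0.12, the 7 accessory PRC2 genes 0.05, the 6 PCGF genes -0.13, the 4 CBX genes -0.09, the 6 PHC and SCM genes -0.12 and the 13 genes of variant PRC1 -0.06. The histone chaperones Rbbp4 and Rbbp7, shared with other chromatin complexes, were the highest of the core PRC2 list per kilobase of exon. Rbbp4 measured 229 and 254.985 CPM in sh3F against 273 and 230 CPM in shControl, and Rbbp7 74.0 and 74.1 against 72.3 and 56.3 CPM. Mtf2 and Aebp2, accessory PRC2 subunits, measured 26.5 and 26.8 against 24.4 and 26.0 CPM, and 11.99 and 11.3 against 9.47 and 12.5 CPM. Phc2 and Phc1, polyhomeotic proteins that polymerise PRC1, measured 24.7 and 22.8 against 29.4 and 24.3 CPM, and 7.995 and 6.97 against 6.78 and 9.09 CPM. Phc3, of the same family, measured 10.2 and 7.62 CPM in sh3F against 8.17 and 9.92 CPM in shControl. In the variant PRC1 list, Skp1a measured 1097 and 1281 CPM in sh3F against 1120 and 1190 CPM in shControl, Yaf2 45.2 and 45.9 against 47.2 and 47.9 CPM, and Max 30.9 and 33.2 against 39.9 and 29.4 CPM. None of these differences passed the test.

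Enzymes that remove or oppose the Polycomb marks gave 0 calls as well. Of 8 genes for removal of the marks 0 passed in edgeR, 0 had an unadjusted p under 0.05 and the median log2 fold change was -0.09. Bap1, which removes ubiquitin from histone H2A, measured 11.7 and 11.4 CPM in sh3F against 13.9 and 10.5 CPM in shControl. Usp16, another H2A deubiquitinase, measured 11.8 and 11.8 against 13.3 and 13.8 CPM, and Kdm6a, an H3 lysine 27 demethylase, 7.84 and 10.1 against 8.55 and 9.01 CPM. Of 11 Trithorax genes, most of them for complexes that methylate lysine 4 of histone H3, 0 passed and 0 had an unadjusted p under 0.05. Of the 11 fitted values, 8 were below 0 (median -0.16), where 51.1% of all tested genes were. The small subunit Dpy30 measured 249 and 249 CPM in sh3F against 215 and 236 CPM in shControl, Ash2l 14.9 and 15.9 against 18.4 and 19.0 CPM, and Men1 7.57 and 6.12 against 8.27 and 6.01 CPM.

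Genes known as Polycomb targets gave no call in edgeR, DESeq2 or limma-voom with all 4 libraries. Fezf2, a deep-layer neuron factor, measured 4.32 and 3.45 CPM in sh3F against 5.62 and 5.48 CPM in shControl (log2 fold change -0.51, edgeR adjusted p = 0.387) and was the single target of that list with an unadjusted p under 0.05. Cdkn2a, which encodes cell cycle inhibitors, measured 2.66 and 1.82 CPM in sh3F against 1.81 and 1.43 CPM in shControl (log2 fold change 0.46, edgeR adjusted p = 0.691). Its neighbour Cdkn2b measured 1.17 and 0.847 CPM in sh3F against 1.30 and 0.977 CPM in shControl. Neurog1, a proneural factor, had only 2 and 1 counts in sh3F against 8 and 2 in shControl and was too low to test.

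Of the 39 HOX genes, classic targets described as silent in the forebrain, 14 were at 0 in every library and 8 were tested. The list was thus not wholly silent in these cultures. Of these 8, 0 passed in edgeR and 0 had an unadjusted p under 0.05. Their median log2 fold change was 0.39, beside -0.01 over all tested genes. Of the 8 values, 7 were above 0, where 51.1% of all tested genes were below 0. The groups overlapped in 7 of the 8. The median of the 8 ran from -0.01 without sh3F replicate 1 to 0.85 without shControl replicate 2. Hoxb1 stood apart in level, at 17.5 and 14.9 CPM in sh3F against 9.47 and 17.0 CPM in shControl, and the groups overlapped. It passed in a single alternative, without shControl replicate 2, the library with the higher control level (log2 fold change 0.79, edgeR adjusted p = 0.0030). Hoxd9 measured 2.03 and 0.912 CPM in sh3F against 1.30 and 1.43 CPM in shControl, and Hoxc8 2.29 and 1.17 against 0.743 and 1.73 CPM.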

How the data were processed

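The table that the authors deposited holds estimated counts for each gene without normalization, from Salmon on GRCm38 and mm10, per the submitters' processing notes. The labels do not state a version of Salmon, an annotation release or the use of strand. Total RNA was made into libraries with the NEBNext Ultra II kit, per the labels' protocols. Identifiers were matched without version to GENCODE M21 (GRCm38), which covered 34652 of 34866. Estimated counts were rounded and entered edgeR 4.0.16 (R 4.3.3) with TMM factors of 1.05 and 1.01 in sh3F and 1.04 and 0.907 in shControl, filterByExpr with a minimum count of 10, and a robust quasi-likelihood F test, two-sided, adjusted over all 14050 tested genes by the Benjamini-Hochberg method. The procedure was tested on simulated counts, where it missed many of the smaller changes. Those changes were placed only in genes above a mean level that Cbx2, Cbx7 and Cbx8 did not reach, so the simulation does not cover them. A gene that did not pass may still have changed. SE is the log2 fold change divided by the square root of F, and levels are CPM after TMM. Counts, and so intervals, limit the scarce genes most. Alternatives used DESeq2 1.42.0, limma 3.58.1 (voom), other scaling, other filters, a replicate block and leaving out each library. A further alternative left out the 13 genes encoded by mitochondrial DNA. Replicates were not the same library deposited again, since their counts differed by more than sampling noise (chi-square per degree of freedom 6.88 in sh3F and 17.0 in shControl). Nothing says that they came from separate cultures, so p-values measure only the spread between libraries, which may be technical. All 4 libraries carry 1 batch label. The members, gene lists and ratios were chosen with earlier results of these data known. 1 subunit gene is not reported here. Named genes were the members, the targeted genes, list genes past the threshold, or else the 3 of highest level per kilobase in a Polycomb list; Jarid2, Ezh1, Neurog1, Sox2 and Emx1 were named after their values were seen.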

Additional observations from a re-analysis of the deposited data

How the results depend on the processing

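The count of 0 members past the threshold was the same in all 12 alternative fits, and so was that of the 35 other subunits; over the wider lists it was 0 to 1 when leaving out a library and 0 otherwise. All tested genes called numbered 192 (76 higher, 116 lower), 105 with scaling by library size alone (28 lower) and 55 with DESeq2 (23 higher, 32 lower). Leaving out 1 library gave 44 to 614 (27 to 280 higher, 17 to 334 lower); the lone library of a group is then assumed to vary like the others. Of 108 member values under alternatives, 98 kept their direction and 10 did not. Leaving out 1 library, log2 fold changes ran from -0.032 to 0.15 for Ezh2, -0.018 to 0.13 for Ring1, -0.12 to 0.12 for Rnf2 and -0.41 to 0.46 for Cbx7. Rnf2 was -0.0021 with limma-voom and -0.0040 without the filter. The cause was not tested. With the replicate number as a block, Rnf2 was -1.03e-05 and 0 members passed. The correlation of replicate differences between the groups was -0.06. That value gives no sign of a shift shared by replicate number, but it cannot show whether the libraries were paired. The block changed no call of a member or of the wider Polycomb lists. Alternatives for the called cell markers were added after seeing the data: the call of Hbb-y was lost with the block (edgeR adjusted p = 0.0529), DESeq2 (0.631) and library size alone (0.111), and that of Tubb3 with library size alone (0.0728).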
